A study of Mus musculus with 9 samples.

Results

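Small heat shock proteins and the co-chaperone BAG3 were followed across 9 mouse gastrocnemius libraries. The 8 genes, Hspb1, Hspb2, Hspb3, Hspb6, Hspb7, Hspb8, Cryab and Bag3, were taken by symbol from the 23238 gene symbols of the count tables. All 8 were found, each on a single row, and all 8 passed the filter on low counts that left 12859 genes for testing. The libraries came from female C57BL/6 mice given as 4 weeks of age, in 3 groups of 3. RP mice received 4 intraperitoneal injections of cisplatin at 3 mg/kg, 1 every other day, and 100 mg/kg RP by mouth over 9 days, where RP is the name of the oral agent in the labels and the title of the series points to Paeonia lactiflora, a peony. Cisplatin mice received the same injections with distilled water by mouth, and Normal mice received saline injections with distilled water. Cisplatin is a platinum compound that crosslinks DNA and causes muscle loss in rodents. Both the RP and the Cisplatin group carried the drug, and no group had RP alone. Whether every sample is a different mouse is not stated, and p-values therefore describe the spread among the samples, which may be technical in part.

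Small heat shock proteins are chaperones that hold unfolding proteins in solution without using ATP and share an alpha-crystallin domain. Skeletal muscle is rich in them, and several bind the filaments and Z-discs of the sarcomere. BAG3 binds HSPB8 and HSP70 at the same time and, with the ubiquitin ligase STUB1 and the autophagy receptor SQSTM1, passes damaged proteins such as filamin C to autophagy, a route called chaperone-assisted selective autophagy. Many heat shock genes are induced by the transcription factor HSF1, which binds repeats of the letters GAA in alternating orientation.

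The stretches before the gene starts are shown for the 3 genes that were higher in Cisplatin and for the gene with the largest decrease, because heat shock genes are regulated through this region. Sequences are from RefSeq on GRCm38.p6, 250 bases before the start, 5′ to 3′ on the gene's strand, with matches to GAANNTTC in capitals.
Hspb1: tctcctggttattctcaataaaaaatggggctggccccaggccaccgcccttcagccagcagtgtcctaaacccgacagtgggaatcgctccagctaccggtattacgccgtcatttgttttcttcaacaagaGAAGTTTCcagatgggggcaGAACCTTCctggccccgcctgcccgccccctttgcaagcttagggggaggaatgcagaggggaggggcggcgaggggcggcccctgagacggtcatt
Hspb7: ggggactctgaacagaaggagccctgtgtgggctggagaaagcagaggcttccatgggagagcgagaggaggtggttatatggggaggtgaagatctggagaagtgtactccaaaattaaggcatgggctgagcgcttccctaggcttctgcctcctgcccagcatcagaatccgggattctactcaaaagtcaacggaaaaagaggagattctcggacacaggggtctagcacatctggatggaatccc
Bag3: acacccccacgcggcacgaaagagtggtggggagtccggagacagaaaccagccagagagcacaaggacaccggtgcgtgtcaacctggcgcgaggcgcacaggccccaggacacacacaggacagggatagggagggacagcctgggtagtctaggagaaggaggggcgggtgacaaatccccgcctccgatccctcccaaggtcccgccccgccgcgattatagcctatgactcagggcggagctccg
Hspb3: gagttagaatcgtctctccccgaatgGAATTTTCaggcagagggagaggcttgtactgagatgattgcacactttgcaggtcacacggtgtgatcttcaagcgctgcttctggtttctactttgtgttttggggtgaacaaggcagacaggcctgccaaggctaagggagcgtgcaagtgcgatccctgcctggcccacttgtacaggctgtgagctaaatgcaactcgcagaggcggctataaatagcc
They cover chr5:135887669-135887918 on the plus strand, chr4:141420529-141420778 on the plus strand, chr7:128523333-128523582 on the plus strand and chr13:113663677-113663926 on the minus strand. No annotated exon fell in these 4 windows. Promoter entries were found for 6 of the 8 genes; Hspb2 and Cryab had none. Besides GAANNTTC, both strands were searched for TTCNNGAA and for the heat shock element of 3 repeats, which contains both (GAA, any 2 bases, TTC, any 2 bases, GAA). GAANNTTC and TTCNNGAA each hold a pair of repeats and read the same on both strands. The Hspb1 window held 2 matches to GAANNTTC, which began 117 and 97 bases before the start. The Hspb3 window held 1 at 224 bases, and 1 of the 2 Hspb6 windows held 1 at 120 bases. GAANNTTC occurred in 6.69% of all 32851 promoter windows of this length, TTCNNGAA in 7.17% and the element of 3 repeats in 0.466%. Neither TTCNNGAA nor the element of 3 repeats occurred in a window of these 6 genes, which says only that those letters are not in these windows.

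Library totals were 9178613 to 9826089 counts in RP, 8352397 to 10678342 in Cisplatin and 8196030 to 8677236 in Normal. With 3′ libraries a transcript gives 1 tag whatever its length. Values are therefore CPM, counts relative to library size, after TMM scaling for library composition and without division by gene length, and each gene is compared with itself. Rn45s, the ribosomal RNA precursor, held 7.38 to 11.8% of counts in RP, 9.23 to 12.1% in Cisplatin and 12.6 to 12.8% in Normal. The fibre genes Acta1, Ckm, Myh4, Tnnt3 and Mylpf, which mark skeletal muscle, were present in every library, with summed levels of 89236 to 102938 CPM in RP, 61578 to 75165 CPM in Cisplatin and 80099 to 94979 CPM in Normal.

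What cisplatin did to these chaperone genes is addressed by Cisplatin against Normal. Hspb1, Hspb7 and Bag3 rose, Hspb2, Hspb3 and Cryab fell, and Hspb6 and Hspb8 were not called. A gene was called at a Benjamini-Hochberg adjusted p under 0.05 by edgeR's quasi-likelihood test over all genes tested. Of all genes, 26.3% were called higher, 28.2% lower and 54.5% either way in this comparison, against 3, 3 and 6 of the 8. The groups did not overlap for 62.2% of all genes and for 6 of the 8. The median log2 fold change of the 8 was -0.03, and that of all genes -0.08.

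RP against Cisplatin asks what oral RP changed in cisplatin-treated mice. There, Hspb1, Hspb7, Bag3 and Hspb8 were lower and Hspb2 and Hspb3 were higher, while Hspb6 and Cryab were not called. Over all genes, 24.2% were called lower, 24.6% higher and 48.8% either way, against 4, 2 and 6 of the 8. The groups did not overlap for 56.8% of all genes and for 6 of the 8. The median log2 fold change was -0.29 for the 8 and 0.07 for all genes. In RP against Normal, 0 of the 8 were called by edgeR, where 0.505% of all genes were called, and the medians were -0.21 for the 8 and -0.01 for all genes. At an unadjusted p under 0.05, 2 of the 8 passed there, Hspb8 and Cryab. The share of all genes at that unadjusted cut was not computed, so the 2 cannot be set against it. DESeq2 and limma-voom also called 0 of the 8 at an adjusted p under 0.05. The first 2 comparisons share the Cisplatin libraries and are not independent of each other.

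**Figure D1:**
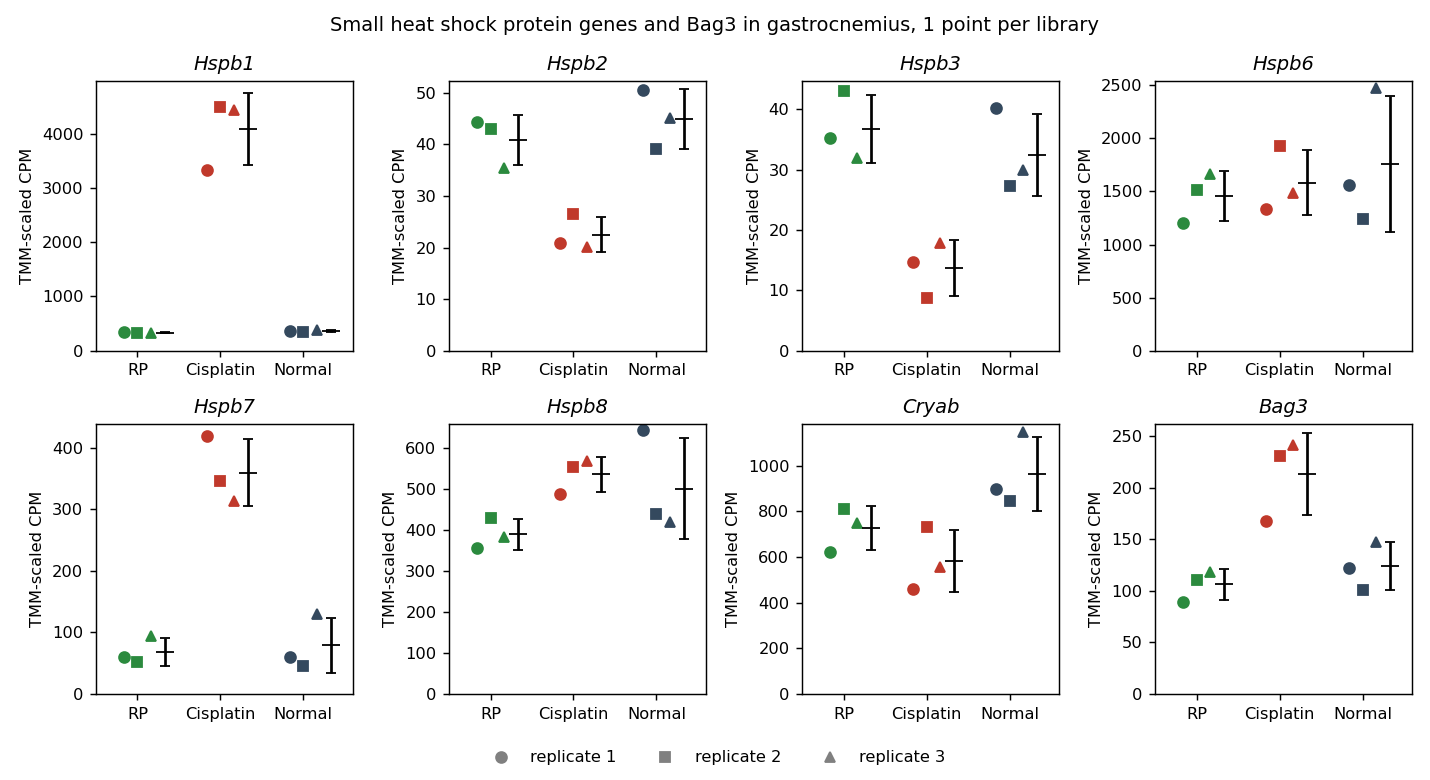
TMM-scaled CPM (vertical axes, linear and starting at 0) of each of the 8 genes in the RP, Cisplatin and Normal libraries; symbols mark the replicate number and the black bar gives the mean ± SD of 3 libraries. Hspb1 lies at 3321 to 4491 CPM in Cisplatin and at 318 to 375 CPM elsewhere, and Hspb2 and Hspb3 are lowest in Cisplatin.

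Hspb1 encodes HSP25, the mouse form of human HSP27, a chaperone that binds actin filaments and is phosphorylated by the kinase MAPKAPK2. The gene lies at chromosome 5, 135887919 to 135889563, on the plus strand of GRCm38. It was at 348, 334 and 318 CPM in the RP libraries, at 3321, 4491 and 4442 CPM in the Cisplatin libraries and at 367, 341 and 375 CPM in the Normal libraries. Each Cisplatin library was far above the other 6, which lay within a narrow band. The log2 fold change was 3.50 ± 0.16 (edgeR SE; adjusted p = 1.74e-08) in Cisplatin against Normal, an 11.3-fold higher level. The fold change of 31 genes was larger, out of 9976 whose mean reached 5 CPM in either group. In RP against Cisplatin it was -3.62 ± 0.16 (adjusted p = 3.79e-08), and 14 of 9832 such genes fell further. RP and Normal libraries overlapped, with a difference of -0.12 ± 0.15 and a 95% interval of -0.43 to 0.20.

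Hspb7 encodes a small heat shock protein of heart and skeletal muscle that binds filamin C, and lies at chromosome 4, 141420779 to 141425311, on the plus strand. Its levels were 60.1, 51.4 and 94.5 CPM in RP, 419, 346 and 314 CPM in Cisplatin and 59.5, 46.0 and 131 CPM in Normal. The Cisplatin libraries again stood above all others, while the third library was the highest in both RP and Normal. The log2 fold change was 2.19 ± 0.33 in Cisplatin against Normal (adjusted p = 8.41e-05), a 4.57-fold higher level, and 2.78 without Normal replicate 3. In RP against Cisplatin it was -2.39 ± 0.33 (adjusted p = 6.07e-05). RP against Normal gave -0.20 ± 0.32, with an interval of -0.88 to 0.49, and 0.39 without Normal replicate 3.

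Bag3, at chromosome 7, 128523616 to 128546981, on the plus strand, encodes the co-chaperone itself. Its tags reached 89.3, 111 and 119 CPM in RP, 168, 231 and 242 CPM in Cisplatin and 122, 101 and 148 CPM in Normal. The groups did not overlap in either comparison with Cisplatin, although the lowest Cisplatin library was only slightly above the highest Normal library. The rise was smaller than those of Hspb1 and Hspb7, at a log2 of 0.79 ± 0.18 (adjusted p = 0.00186), or 1.73-fold. The fold change of RP over Cisplatin was -1.01 ± 0.18 on the log2 scale (adjusted p = 0.000403), and RP against Normal was -0.22 ± 0.18 (interval -0.60 to 0.16).

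Hspb8 encodes the partner that BAG3 holds, and lies at chromosome 5, 116408491 to 116422864, on the minus strand. It was at 355, 430.5 and 383 CPM in RP, 488, 554 and 568 CPM in Cisplatin and 644, 439.5 and 419.6 CPM in Normal. Normal replicate 1 was the highest of all 9 libraries and the other Normal libraries were below every Cisplatin library. Cisplatin against Normal was 0.10 ± 0.17 and was not called (adjusted p = 0.635, interval -0.26 to 0.45). RP against Normal was -0.36 ± 0.17 (interval -0.72 to -0.01, adjusted p = 0.381). RP was lower than Cisplatin (log2 -0.46 ± 0.17, adjusted p = 0.0333), close to the threshold. Without Cisplatin replicate 2, Cisplatin replicate 3, RP replicate 1 or RP replicate 3 the log2 fold change was -0.44, -0.43, -0.40 and -0.46, in that order, with adjusted p of 0.0811, 0.0703, 0.118 and 0.0697 (edgeR), so the call was lost while the size stayed close. It was also lost with a filter of 5 CPM in 3 libraries (-0.40, adjusted p = 0.0575) and with library size as the only scaling (-0.31, adjusted p = 0.138).

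The ratio of Hspb8 to Bag3 tags within a library, which does not depend on scaling, was 3.98, 3.88 and 3.23 in RP, 2.90, 2.40 and 2.35 in Cisplatin and 5.26, 4.34 and 2.84 in Normal. Every Cisplatin value was below every RP value, whereas Normal replicate 3 fell within the Cisplatin range. The difference in mean log2 ratio was 0.54 in RP against Cisplatin (two-sided exact permutation test, p = 0.1, the smallest that 3 against 3 libraries allow; adjusted p = 0.2 over 12 ratio tests). In Cisplatin against Normal it was -0.66 (exact permutation p = 0.2, adjusted p = 0.267).

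Hspb2 and Cryab are neighbours on chromosome 9 with opposite strands: Hspb2 at 50751078 to 50752354 on the minus strand and Cryab at 50751325 to 50756636 on the plus strand. Their spans overlap by 1030 bases, 252 of them exonic in both, and no annotated transcript end of either gene lies inside the other. Whether reads were counted by strand is not given, so tags in the shared bases cannot be assigned to either gene with certainty. HSPB2, also called the myotonic dystrophy kinase binding protein, is found in muscle in a complex with HSPB3. Hspb2 was at 44.3, 42.9 and 35.4 CPM in RP, 20.9, 26.4 and 20.1 CPM in Cisplatin and 50.6, 39.1 and 45.1 CPM in Normal. All 3 Cisplatin libraries were lower than the other 6. It was 1.99-fold lower in Cisplatin than in Normal (SE 0.16 on the log2 scale, adjusted p = 0.000179). Its log2 fold change was 0.86 ± 0.16 in RP against Cisplatin (adjusted p = 0.000689). RP against Normal was -0.14 ± 0.16 (interval -0.48 to 0.20).

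Cryab encodes alpha-B crystallin, which binds desmin and titin. Its levels were 622, 809.6 and 747 CPM in RP, 461, 731 and 556 CPM in Cisplatin and 895, 844 and 1146 CPM in Normal. Cisplatin did not overlap with Normal, and RP lay between them, overlapping with Cisplatin and below every Normal library. Cisplatin was lower than Normal (log2 -0.72 ± 0.18, adjusted p = 0.00441). RP against Cisplatin was 0.32 ± 0.18 and was not called (adjusted p = 0.164, interval -0.07 to 0.71), though it was called without Cisplatin replicate 2 (0.51, adjusted p = 0.0387). RP against Normal was -0.40 ± 0.18 (interval -0.80 to -0.01, edgeR adjusted p = 0.372), and 19.2% of all genes had non-overlapping groups in that comparison.

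The ratio of Cryab to Hspb2 tags was 14.0, 18.9 and 21.1 in RP, 22.1, 27.6 and 27.7 in Cisplatin and 17.7, 21.6 and 25.4 in Normal. RP was below Cisplatin in every library (mean log2 difference -0.53, exact permutation p = 0.1, adjusted p = 0.2), and the Cisplatin and Normal ranges overlapped (0.27, exact permutation p = 0.2, adjusted p = 0.267). The limit on assigning tags in the bases shared by Hspb2 and Cryab holds for this ratio as well.

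Hspb3, the partner of HSPB2, lies at chromosome 13, 113662896 to 113663676, on the minus strand. It was at 35.4, 43.0 and 31.9 CPM in RP, 14.7, 8.75 and 17.8 CPM in Cisplatin and 40.2, 27.3 and 30.0 CPM in Normal. Cisplatin again did not overlap with either other group. The log2 fold change was -1.25 ± 0.24 in Cisplatin against Normal (adjusted p = 0.000621), the largest fall among the 8 genes, and 1.42 ± 0.24 in RP against Cisplatin (adjusted p = 0.000283). RP against Normal was 0.18 ± 0.23 (interval -0.31 to 0.67). Hspb3 also had the fewest counts of the 8 genes, 92 in Cisplatin replicate 2. That library had the highest ratio of Hspb2 to Hspb3 tags, 3.02, while the ratio in the other Cisplatin libraries was 1.42 and 1.13. In RP the ratio was 1.25, 0.998 and 1.11, and in Normal 1.26, 1.43 and 1.51. Cisplatin against Normal gave a mean log2 difference of 0.28 (exact permutation p = 0.9, adjusted p = 0.9) that turned to -0.14 without Cisplatin replicate 2.

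Hspb6 encodes HSP20, a chaperone that protein kinase A phosphorylates in smooth and heart muscle. The gene spans 30552178 to 30555443 on the plus strand of chromosome 7. Its levels were 1205, 1513 and 1667 CPM in RP, 1339, 1928 and 1485 CPM in Cisplatin and 1565, 1242 and 2473 CPM in Normal. All groups overlapped, and Normal replicate 3 was the highest library. Cisplatin against Normal was -0.15 ± 0.23 (adjusted p = 0.601, interval -0.65 to 0.34) and 0.19 without Normal replicate 3. RP against Cisplatin was -0.12 ± 0.23 (adjusted p = 0.700, interval -0.61 to 0.38), with the opposite sign under library size alone (0.024), without Cisplatin replicate 2 (0.049) and without RP replicate 1 (0.0059). RP against Normal was -0.27 ± 0.23 (interval -0.76 to 0.23), and 0.067 without Normal replicate 3.

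The Hspb6 end meets that of Lin37, a gene of the DREAM cell cycle repressor complex, at 30555441 to 30559838 on the minus strand, with 3 bases in common. Whether reads were counted by strand is not given in the sources used here, so tags of the 2 genes cannot be told apart at their ends. Lin37 counts equalled 7.01 to 8.62% of Hspb6 counts in RP, 7.56 to 8.89% in Cisplatin and 7.87 to 9.16% in Normal. By the distance measure given below, Lin37 was also the gene closest in pattern to Hspb6.

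**Figure D2:**
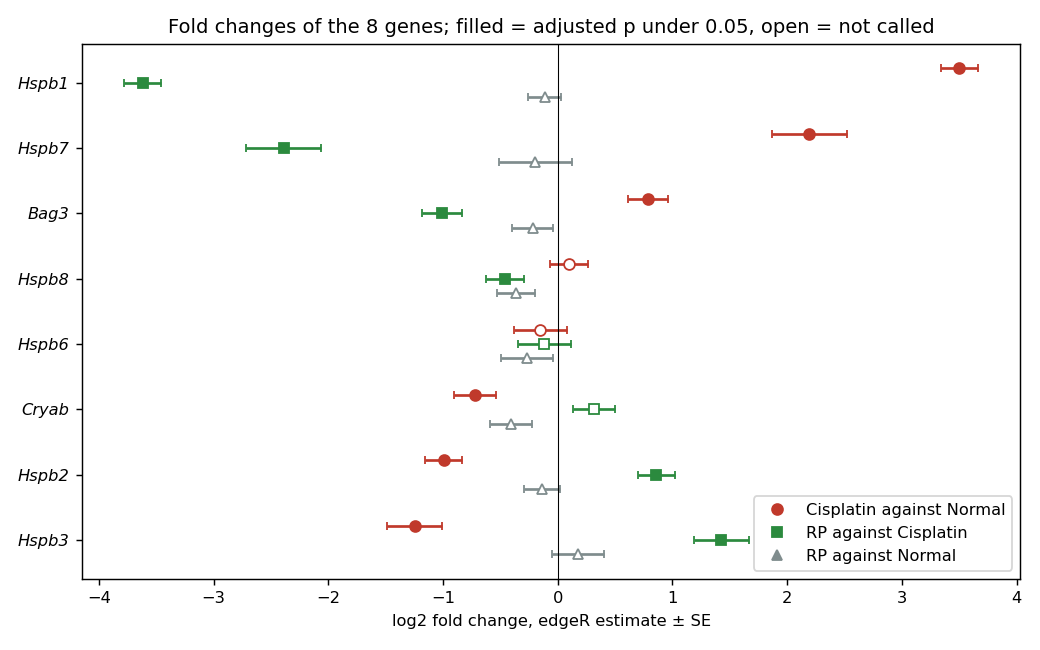
Log2 fold changes (horizontal axis, edgeR estimate ± SE) of the 8 genes in the 3 comparisons of Cisplatin with Normal, RP with Cisplatin and RP with Normal; filled symbols passed an adjusted p under 0.05 and open symbols did not. Hspb1 is at 3.50 in Cisplatin against Normal and at -3.62 in RP against Cisplatin, and all 8 symbols of RP against Normal are open.

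The tags of the 7 small heat shock protein genes added up to 2669.7, 3224 and 3278 CPM in RP, 6063, 8085 and 7402 CPM in Cisplatin and 3621, 2978 and 4619 CPM in Normal. The Cisplatin libraries held more of these tags than any other library. Without Hspb1 the sums were 2322, 2889.98 and 2960.1 CPM in RP, 2742, 3594 and 2960.3 CPM in Cisplatin and 3254, 2638 and 4244 CPM in Normal, and the groups overlapped. Hspb1 supplied 9.71 to 13.0% of the family's tags in RP, 54.8 to 60.0% in Cisplatin and 8.11 to 11.4% in Normal. The share of Cryab was 22.8 to 25.1% in RP, 7.51 to 9.04% in Cisplatin and 24.7 to 28.3% in Normal. A share also falls when Hspb1 adds tags to the total, so it does not measure the fall of Cryab alone. Hspb6, whose level was not called, held 45.1 to 50.9% in RP, 20.1 to 23.9% in Cisplatin and 41.7 to 53.5% in Normal.

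**Figure D3:**
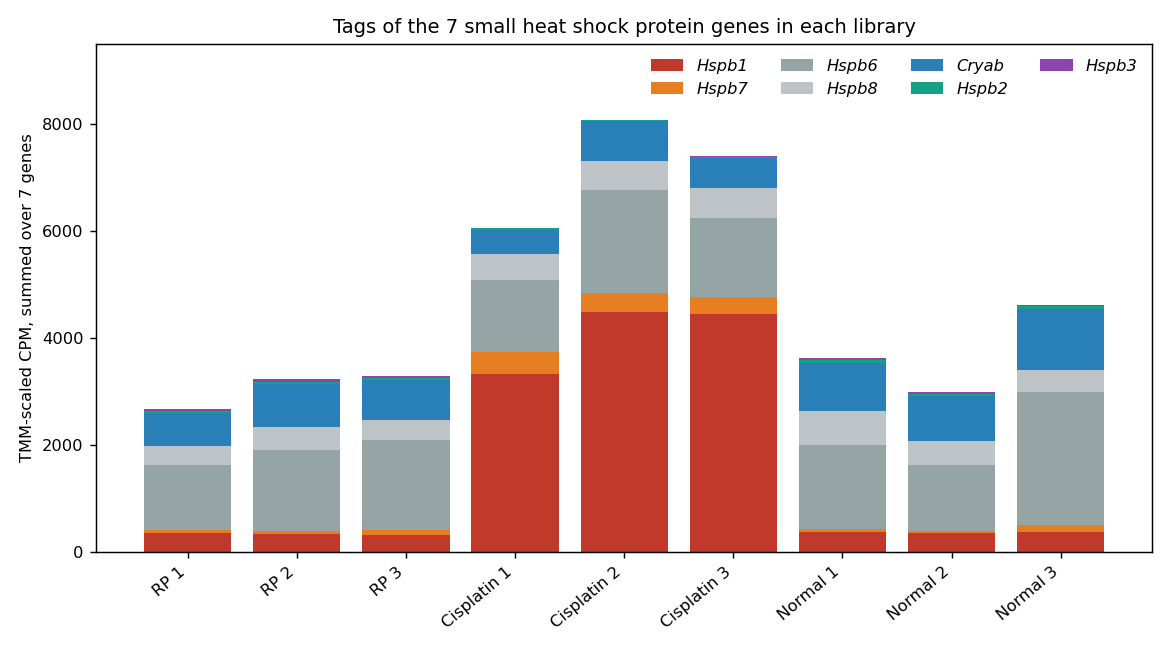
Stacked TMM-scaled CPM (vertical axis, starting at 0) of the 7 small heat shock protein genes in each RP, Cisplatin and Normal library, 1 bar per library. The red Hspb1 segment is 3321 to 4491 CPM in Cisplatin and 318 to 375 CPM in the other libraries.

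The Hspb1 to Cryab ratio within a library was 0.559, 0.412 and 0.426 in RP, 7.20, 6.15 and 7.99 in Cisplatin and 0.410, 0.404 and 0.327 in Normal. Cisplatin lay above both other groups, by a mean log2 of 4.22 against Normal, and RP against Cisplatin was -3.94. RP lay above Normal by 0.29, also with no overlap. Each of the 3 differences had an exact permutation p of 0.1, the smallest possible, and an adjusted p of 0.2.

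Other genes with an alpha-crystallin domain were at or near 0 counts in this muscle. Hspb9 and Odf1, known mainly from testis, had 0 counts in all 9 libraries, which allows at most 0.0364 CPM over the 9 by a floor of 3 counts. Cryaa, the alpha-A crystallin of the lens, had 0 counts over the RP group, 8 over Cisplatin and 1 over Normal. Of 5 other BAG genes, 2 rose, 1 fell and 2 were not called in Cisplatin against Normal, beside 26.3% and 28.2% of all genes. With the filter of 5 CPM in 3 libraries 2 were called lower, and with the slow fibre covariate described below 1 was called higher. Bag6 rose to 109.9 CPM in Cisplatin against 58.3 CPM in Normal (log2 0.91 ± 0.14, adjusted p = 8.69e-05), and Bag5 to 37.5 CPM in Cisplatin against 22.1 CPM in Normal (0.76 ± 0.17, adjusted p = 0.00206). Both were lower in RP than in Cisplatin, Bag6 with a log2 of -0.50 ± 0.13 (adjusted p = 0.00793) and Bag5 with -0.87 ± 0.17 (adjusted p = 0.000983). Bag2 fell in Cisplatin (-0.65 ± 0.22, adjusted p = 0.0232), a call lost without Normal replicate 1, Cisplatin replicate 1 or Cisplatin replicate 3, and with the slow fibre covariate. Bag1 was at 93.1 CPM in Cisplatin and 93.3 CPM in Normal, and Bag4 at 13.6 CPM in Cisplatin and 18.5 CPM in Normal, and neither was called.

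The BAG3 route was read from 11 genes, all tested. Cisplatin raised 7 of them and lowered 1 relative to Normal, where 26.3% and 28.2% of all genes were called, and the median log2 was 0.49. Flnc, which encodes filamin C, the cross-linker of actin at the Z-disc, rose to 601 ± 70.6 CPM in Cisplatin against 126 ± 29.4 CPM in Normal (SD, n = 3 each; log2 2.25 ± 0.20, edgeR adjusted p = 1.08e-06). Map1lc3b, an LC3 gene of the autophagosome membrane, rose by 2.08 ± 0.17, Sqstm1 by 1.84 ± 0.15 and Dnajb6, a J-domain co-chaperone of the Z-disc, by 1.21 ± 0.13. Hspa8, the constitutive HSP70, rose by 0.49, whereas Stub1 was at 71.2 CPM in Cisplatin and 68.0 CPM in Normal (0.06 ± 0.14, adjusted p = 0.718). Synpo2, which ties the BAG3 complex to the autophagosome machinery, was the gene that fell, to 14.0 CPM in Cisplatin against 46.9 CPM in Normal (-1.75 ± 0.26, adjusted p = 8.63e-05). Hspa8, Stub1 and Synpo2 were picked for naming with their values known.

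In RP against Cisplatin 6 of these 11 were lower, 1 was higher and 4 were not called, with a median of -0.47, beside 24.2% of all genes lower and 24.6% higher. The log2 fold change was -2.32 ± 0.20 for Flnc, -1.54 ± 0.17 for Map1lc3b, -1.43 ± 0.15 for Sqstm1 and -1.30 ± 0.13 for Dnajb6 (adjusted p = 1.48e-06, 9.46e-06, 7.07e-06 and 4.23e-06, edgeR). Synpo2 was the one that was higher, by 1.08 ± 0.26 (adjusted p = 0.00361). Without RP replicate 2, or with library size alone, 2 of the 11 were called higher.

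Of 17 genes of the HSF1 heat shock response, Hsf1 included, 9 rose and 1 fell in Cisplatin against Normal, beside 26.3% and 28.2% of all genes, with a median log2 of 0.51. The gene that fell was Hspa4l, at 2.13 CPM in Cisplatin and 7.31 CPM in Normal (-1.76 ± 0.39, adjusted p = 0.00192), named with its value known. With library size alone, or with the filter of 5 CPM in 3 libraries, 2 were called lower. Hsf1 itself rose to 43.6 CPM in Cisplatin against 15.8 CPM in Normal (1.46 ± 0.15, adjusted p = 3.70e-06). The HSP90 genes Hsp90ab1 (1.48 ± 0.16) and Hsp90aa1 (0.76 ± 0.13) and the HSP110 gene Hsph1 (0.89 ± 0.15) rose as well. Hspa1a, an inducible HSP70 gene, was at 14.3 CPM in Cisplatin and 7.48 CPM in Normal (0.94 ± 0.25, adjusted p = 0.00600). Its near-identical copy Hspa1b was at 3.82 CPM in Cisplatin and 4.38 CPM in Normal (-0.18 ± 0.38, adjusted p = 0.702), it is named with its value known, and how reads were divided between the pair is uncertain. RP was lower than Cisplatin for 9 of the 17, among them Hspa1a (-1.62 ± 0.26), Hsp90ab1 (-1.27 ± 0.16), Hsf1 (-1.09 ± 0.15) and Hsp90aa1 (-0.92 ± 0.13), with a list median of -0.51, and 24.2% of all genes were called lower. In the fit reported here 0 of the 17 were called higher, and as many as 2 under the alternatives, beside 24.6% of all genes.

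**Figure D4:**
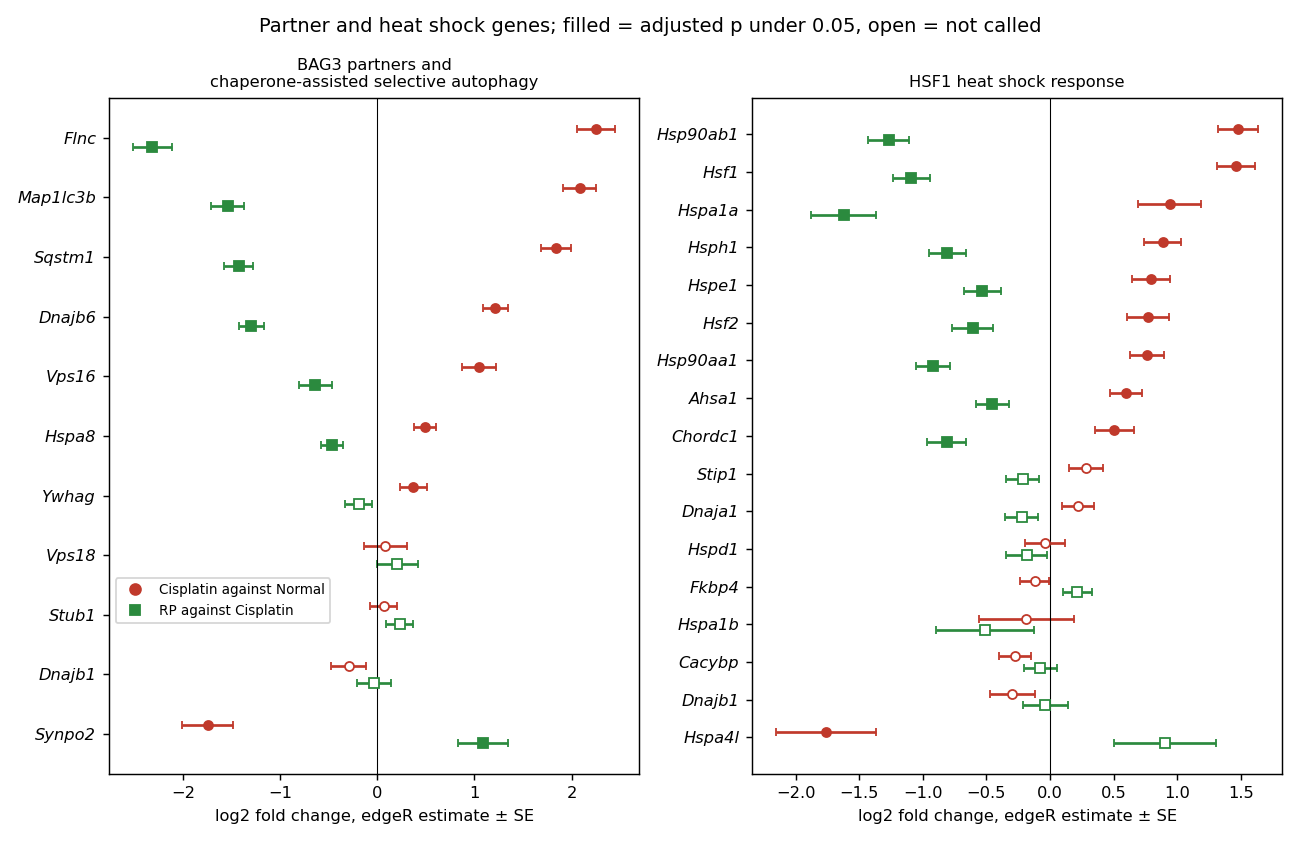
Log2 fold changes (horizontal axes, edgeR estimate ± SE) of 11 genes of the BAG3 route and 17 HSF1 response genes, for Cisplatin over Normal and for RP over Cisplatin; filled symbols passed an adjusted p under 0.05. Flnc is at 2.25 and -2.32, and Synpo2 at -1.75 and 1.08.

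Small heat shock proteins bind desmin and proteins of the Z-disc. Of 10 such genes, 3 rose, Flnc among them, and 4 fell in Cisplatin against Normal (median -0.38), beside 26.3% and 28.2% of all genes. Des, the muscle intermediate filament gene desmin, was at 1428 CPM in Cisplatin and 840.5 CPM in Normal (0.76 ± 0.16, adjusted p = 0.00105), and is named after its value was seen. Ldb3, a PDZ-LIM protein of the Z-disc, fell by 1.24 ± 0.13 on the log2 scale and the intermediate filament gene Synm by 1.07 ± 0.15. Vim, abundant in connective tissue cells, fell by 2.23 ± 0.17. The summed level of 5 fibroblast markers was 1818 to 2668 CPM in RP, 329 to 724 CPM in Cisplatin and 2582 to 3688 CPM in Normal, and its part in the fall of Vim was not tested. In RP against Cisplatin 5 of the 10 were higher and 3 lower (median 0.42), beside 24.6% and 24.2% of all genes, with Vim at 1.66, Ldb3 at 1.05 and Synm at 0.92.

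Of the 9 genes of the p38 and MAPKAP kinase pathway, which phosphorylates HSPB1, 8 were tested. In Cisplatin against Normal 3 rose, Map2k3 (0.50 ± 0.12), Mapk12 (0.39 ± 0.13) and Mapkapk5 (0.33 ± 0.13), and Map2k6 fell (-1.94 ± 0.22, adjusted p = 8.52e-06). Of all genes, 26.3% were called higher and 28.2% lower in that comparison. Mapkapk2 was at 146 CPM in Cisplatin and 134 CPM in Normal (0.13 ± 0.14, adjusted p = 0.478), and is named after its value was seen. In this list, 1 gene was called higher under library size alone and 0 with the slow fibre covariate described below (edgeR), against 3 in the fit reported here. RP was lower than Cisplatin for Map2k3 (-0.38) and Mapk12 (-0.37) and higher for Map2k6 (0.81), beside 24.2% of all genes lower and 24.6% higher. The number of the 8 called lower by edgeR there, 2 in the fit reported here, was 0 without Cisplatin replicate 1 or RP replicate 1, with library size alone and with the slow fibre covariate. It was 1 without Cisplatin replicate 2, RP replicate 2 or RP replicate 3, with no filter, with the filter of 5 CPM and with the compared groups fitted alone. Across the 49 genes of these lists that were tested, 1 was called in RP against Normal, beside 0.505% of all genes. It was Map2k6, at 7.27 CPM in RP against 15.9 CPM in Normal (-1.13 ± 0.21, edgeR adjusted p = 0.0324). An unadjusted p under 0.05 was reached by 13 of the 49. The share of all genes at that cut was not computed, so the 13 cannot be set against it. The Map2k6 call was lost without any 1 of the 3 Normal libraries, without RP replicate 1 or RP replicate 3, under library size alone, with the replicate block and with the slow fibre covariate.

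Levels of other cell types and of slow fibres differed between the libraries. The 6 slow fibre markers Myh7, Tnnt1, Tnni1, Tnnc1, Myl2 and Myl3 summed to 237, 432 and 486 CPM in RP, 381, 19.0 and 43.5 CPM in Cisplatin and 1911, 208 and 3659.9 CPM in Normal. All 6 fell in Cisplatin against Normal (median log2 -2.74), beside 28.2% of all genes called lower. In the sum, Normal replicate 2 lay below Cisplatin replicate 1. None of the 6 was at 0 in a group. In bulk tissue fewer cells of a type and less RNA per cell cannot be told apart. Normal replicate 3, the library with the most slow fibre tags, was the highest Normal library for Hspb1, Hspb6, Hspb7, Cryab and Bag3. For Hspb1 the margin was small, at 375 CPM against 367 CPM in Normal replicate 1. Hspb2, Hspb3 and Hspb8 were instead highest in Normal replicate 1, and Hspb8 was lowest in Normal replicate 3. The other groups differed from this. Cisplatin replicate 1, with the most slow fibre tags of its group, was its lowest library for Hspb1, Hspb6, Hspb8, Cryab and Bag3 and its highest for Hspb7. RP replicate 3, with the most in RP, was the highest RP library for Hspb6, Hspb7 and Bag3 and the lowest for Hspb1, Hspb2 and Hspb3.

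With the log2 of this slow fibre sum as a covariate, an alternative chosen after seeing the data, the falls of Hspb3 (-0.90 ± 0.35, adjusted p = 0.0660) and Cryab (-0.81 ± 0.31, adjusted p = 0.0636) in Cisplatin against Normal were no longer called. Hspb2 (-1.02 ± 0.27, adjusted p = 0.0110), Hspb1 (3.32 ± 0.24), Hspb7 (3.09 ± 0.41) and Bag3 (0.84 ± 0.30, adjusted p = 0.0473) were still called. Without the covariate the falls were -1.25 ± 0.24 for Hspb3 and -0.72 ± 0.18 for Cryab. The Cryab estimate was thus not smaller with the covariate, while its SE was larger. In RP against Cisplatin the Hspb8 call was lost at an unchanged fold (log2 -0.46 ± 0.21, adjusted p = 0.110), and the calls of Hspb1, Hspb2, Hspb3, Hspb7 and Bag3 were kept. The covariate is itself lower in Cisplatin, so that it and the treatment are only partly separable.

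**Figure D5:**
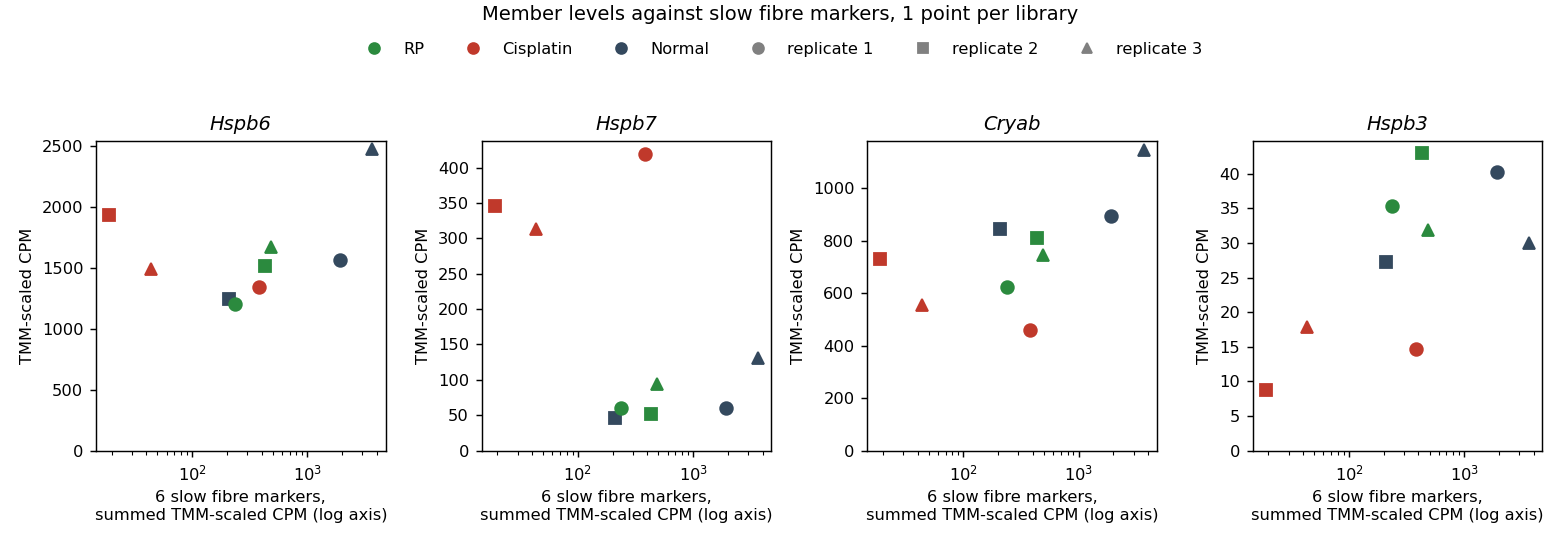
TMM-scaled CPM of Hspb6, Hspb7, Cryab and Hspb3 (vertical axes, starting at 0) against the summed TMM-scaled CPM of 6 slow fibre markers (horizontal log axes), 1 point per library, coloured by RP, Cisplatin and Normal. Normal replicate 3 has the most slow fibre tags, 3659.9 CPM, and the highest Hspb6 and Cryab levels, 2473 and 1146 CPM. Cisplatin replicate 1 has the most slow fibre tags in Cisplatin, 381 CPM, and the lowest Hspb6 and Cryab levels of that group, 1339 and 461 CPM.

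Smooth muscle and pericyte markers, which matter because smooth muscle also expresses Hspb1 and Hspb6, summed over 7 genes to 362 to 452 CPM in RP, 136 to 212 CPM in Cisplatin and 416 to 485 CPM in Normal. All 7 fell in Cisplatin against Normal (median -1.65), where 28.2% of all genes were called lower. All 7 were higher in RP than in Cisplatin (median 1.46), where 24.6% of all genes were called higher. Hspb1 was called in the opposite direction in both comparisons, and Hspb6 was called in neither. The part of smooth muscle in these levels was not tested. Of 5 skeletal fibre markers 3 fell in Cisplatin against Normal (median -0.44), the direction of Hspb2, Hspb3 and Cryab and of 28.2% of all genes. Their part in the member results was not tested. Endothelial markers summed to 203 to 293 CPM in RP, 171 to 231 CPM in Cisplatin and 240 to 283 CPM in Normal, and macrophage markers to 36.4 to 63.0 CPM in RP, 35.5 to 48.5 CPM in Cisplatin and 116 to 126 CPM in Normal. The 5 macrophage markers did not move together. In Cisplatin against Normal 4 were called lower and 1 higher, beside 28.2% and 26.3% of all genes. In RP against Cisplatin 2 were called higher and 1 lower, beside 24.6% and 24.2%. Erythroid markers summed to 64.9 to 410.002 CPM in RP, 34.0 to 60.4 CPM in Cisplatin and 4158 to 8991 CPM in Normal.

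Genes closest in pattern to each member were taken as those with the smallest root mean square distance between log2 CPM profiles, each centred on its mean over the 9 libraries, among 9073 genes. They describe these libraries only. For Hspb1 they were Slc25a34 (distance 0.23), Fam134b (0.25) and Cnksr1 (0.32); Slc25a34 averaged 19.3 CPM in RP, 212 CPM in Cisplatin and 20.0 CPM in Normal. Hspb7 was nearest to Pla2g12a (0.28), Flnc (0.31) and Catsper2 (0.33). Bag3 lay closest to the insulin receptor gene Insr (0.096), Jmjd6 (0.11) and the muscle glycogen synthase gene Gys1 (0.12). Insr averaged 44.7 CPM in RP, 94.6 CPM in Cisplatin and 53.2 CPM in Normal.

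Among the fallen genes, Hspb2 was near Fam171a1 (0.069) and Dynll2 (0.12), and Hspb3 was nearest to Asph (0.19), Rgs4 (0.19) and Atp2b4 (0.20). Cryab was nearest to Timm8a1 (0.12), Zfp626 (0.13) and Mpdz (0.14). Hspb8 had Klhl9 (0.11), Ndst2 (0.13) and Senp8 (0.13), and Hspb6 had Lin37 (0.11), Rptor (0.15) and Sap130 (0.15).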

How the data were processed

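RNA from gastrocnemius muscle was extracted with Trizol and 500 ng was made into Lexogen QuantSeq 3′ libraries, per the labels' protocols. Each sample has 1 deposited table of whole-number read counts, made by the authors, with 23282 rows. Bowtie2, edgeR and the mm10 build are named in the submitters' processing notes; the sources used here give no versions, counter, strand setting or annotation. Rows sharing a symbol were summed (79 rows, 35 symbols). Counts were tested with edgeR 4.0.16 in R 4.3.3: filterByExpr by group, TMM, glmQLFit of 1 model to the 9 libraries with a term for each group, and glmQLFTest with Benjamini-Hochberg adjustment over 12859 genes. SEs were taken as log2 fold change over root F. The 95% intervals use the total degrees of freedom of the test, 13.7, which add edgeR's prior degrees of freedom to the residual ones. Intervals from the residual degrees of freedom alone would be wider. Replicates differed by more than counting error (chi-square per degree of freedom 11.3 to 28.9), so none was treated as a duplicate. The procedure was tested on simulated data in which only a small part of the genes was changed. In Cisplatin against Normal 54.5% of all genes were called, a setting that the simulation does not cover. Log2 CPM profiles used a pseudocount of 0.5 for genes averaging 5 CPM or more, without Gm-numbered and Rik models. Floors cover counting error only.

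Named genes were the 8 members, up to 4 called genes per list and comparison by p, all other BAG and alpha-crystallin genes, and the 3 nearest genes per member. For Hspb2, 1 of these 3 is not reported here. Members and lists were chosen with earlier results of these data known. Gene positions come from GENCODE M21 (GRCm38, the assembly of mm10). Alternatives were RLE scaling, library size alone, no filter, DESeq2 1.42.0, a stricter filter (5 CPM in at least 3 libraries), limma-voom (limma 3.58.1), the 2 compared groups alone, a replicate block, leaving out Rn45s and leaving out each library. Figures used matplotlib 3.10.9 in Python 3.11.15.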

Additional observations from a re-analysis of the deposited data

How the results depend on the processing

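Under the 19 alternatives, the 3 rises of Hspb1, Hspb7 and Bag3 and the 3 falls of Hspb2, Hspb3 and Cryab in Cisplatin against Normal kept their calls, except that with the slow fibre covariate 1 fall was called. That covariate, added after seeing the data, also lowered the genes called in Cisplatin against Normal to 2017 higher and 2059 lower, and in RP against Normal to 8 and 16. The cause was not tested.

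In RP against Normal, 24 genes were called higher and 41 lower, against 36 and 24 with library size alone, 123 and 170 with no filter and 106 and 116 with DESeq2. Leaving out 1 library gave 8 to 59 higher and 14 to 62 lower. Library size alone moved the median log2 fold change of all genes to -0.15, 0.21 and 0.06 for Cisplatin over Normal, RP over Cisplatin and RP over Normal, against -0.08, 0.07 and -0.01 with TMM.

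Signs that turned belonged to uncalled values. Hspb6 was at 0.024 in RP against Cisplatin with library size alone, and at -0.23 to 0.049 when 1 library was left out. With 1 library left out, Hspb6 ranged from -0.34 to 0.19 in Cisplatin against Normal and from -0.46 to 0.067 in RP against Normal, where Hspb7 ranged from -0.49 to 0.39. With the slow fibre covariate Hspb6 was at 0.13 in Cisplatin against Normal and Hspb7 at 0.20 in RP against Normal. The log2 ratio of Hspb8 to Bag3 ranged from -0.38 to 0.069 in RP against Normal, and that of Hspb2 to Hspb3 from -0.14 to 0.57 in Cisplatin against Normal.

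No pairing by replicate number was seen: deviations from group means correlated at -0.14 to 0.17 between same-numbered libraries, and 6 of 18 best matches shared a number. With 3 libraries per group this check cannot show that no pairing exists. The replicate block gave 3 members called higher and 3 lower in Cisplatin against Normal and 2 and 4 for RP over Cisplatin, as without it. Depth limits Hspb3 most, with 92 counts in 1 library.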
